A study of Rattus norvegicus with 12 samples.

Results

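The data are RNA profiles of corpora lutea (CL) of pregnant rats in which estradiol (E2) was given back during inhibition of its synthesis, on day 16 of pregnancy. They comprise 6 of the 12 arrays of the series, namely the 3 arrays of rats given an aromatase inhibitor with E2 (AI+E2) and the 3 of rats given the inhibitor alone (AI), chosen by their labelled treatment. All were pregnant Wistar rats, with the CL RNA of 1 rat on each Affymetrix Rat Gene array. AI was anastrozole at 1 mg/kg BW per day from day 12 for 4 days, and both groups received it. E2 was injected under the skin at 10 µg per day over the same 4 days, so it reached the whole animal and not the CL alone. The labels do not say whether the rats with AI alone had a matching injection. The 6 other arrays are of vehicle treated rats (VEH) on day 16, whose levels are given beside the comparison, and of untreated rats on day 12. The comparison addresses which luteal transcripts change when E2 is replaced while aromatase stays inhibited.

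The CL is the gland formed from the ovulated follicle, and its steroid-producing cells secrete the progesterone that maintains pregnancy. In the rat, the CL of later pregnancy also makes E2 from androgens through aromatase, the product of Cyp19a1. E2 acts mainly through nuclear estrogen receptors in the luteal cells, which also respond to prolactin and placental lactogens.

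With E2 added, transcripts of sterol and fatty acid synthesis and of the androgen-forming enzyme Cyp17a1 were lower than with AI alone. Higher were the milk protein gene Csn1s1, genes of protein folding and translocation in the endoplasmic reticulum, and part of the genes of fatty acid oxidation and PPAR targets. Genes of complement were higher too, though less steadily when single arrays were left out. Values are RMA values on the log2 scale, which the authors deposited after background correction and normalization, and each of 14509 genes was read from 1 probe set. A log2 fold change is the mean of the 3 AI+E2 arrays minus the mean of the 3 AI arrays and is given with its standard error (SE). Genes with an adjusted p under 0.05 are said to have risen or fallen (limma on all 12 arrays, Benjamini-Hochberg adjustment over all genes). Differences of AI+E2 from VEH come from the same fit and share the AI+E2 arrays, so they are given side by side only. In AI+E2 against AI, 1255 genes rose (8.65% of those tested) and 601 fell (4.14%), together 12.8%. At a fold change of at least 1.5, 252 were higher (1.74%) and 133 lower (0.917%), 2.65% in all. At 2-fold, 66 were higher (0.455%) and 44 lower (0.303%), 0.758% in all. Most of the changes were small. The median log2 fold change was 0.39 among genes that rose and -0.36 among those that fell, against -0.022 over all genes tested. The share of calls that were rises was 67.6%, and it was 54.0% when the arrays were quantile normalized once more (1156 rises and 986 falls). In 31.4% of all genes the 3 arrays of one group lay entirely above the 3 of the other. With 3 arrays in each group the smallest p of a two-sided exact permutation test is 0.1, and the number of arrays limits the precision.

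Replicate arrays resembled each other more than they resembled the other group. Across genes, which are not independent replicates, arrays correlated at 0.9945 to 0.9972 within AI, at 0.9959 to 0.9979 within AI+E2 and at 0.9842 to 0.9884 between them. The tissue label fitted the transcripts, as Star, Cyp11a1 and Scarb1, luteal genes of cholesterol transport, side-chain cleavage and lipoprotein uptake, had means of 12.71 or more in both groups (Star named after its values were seen). The spread of values over genes was wider with E2 in most arrays, with SDs of 1.56, 1.52 and 1.57 in AI+E2 and of 1.5, 1.54 and 1.49 in AI. Its part in the counts was not tested beyond the repeated normalization. In bulk tissue, fewer cells of a type and less RNA per cell cannot be told apart.

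**Figure D1:**
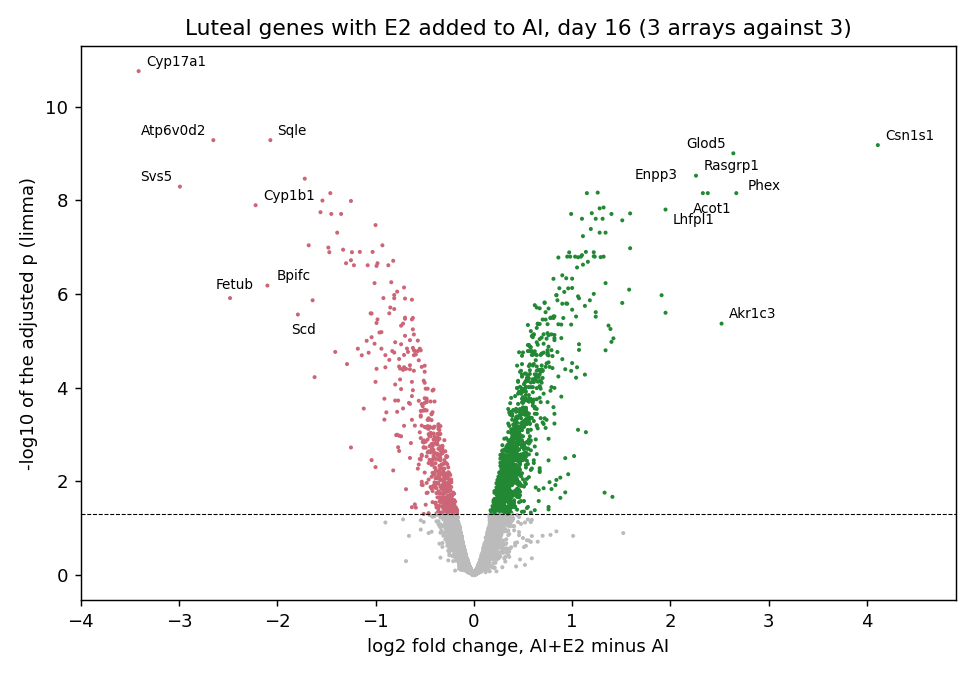
Log2 fold change of each of 14509 luteal genes in AI+E2 against AI (horizontal axis) and -log10 of its adjusted p from limma (vertical axis), with a dashed line at an adjusted p of 0.05, rises in green and falls in red. Csn1s1 lies farthest to the right at 4.11 and Cyp17a1 farthest to the left at -3.41, and most coloured points lie within a log2 fold change of 1 of zero.

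The largest rise belonged to Csn1s1, which encodes the milk protein alpha-S1 casein. It read 5.92, 5.97 and 5.61 in the AI arrays and 9.91, 9.81 and 10.10 in the AI+E2 arrays. This was a 17.2-fold difference, 4.11 on the log2 scale (SE 0.16, adjusted p = 6.61e-10). Its VEH mean was 6.63 (SD 0.40, n = 3), so the level with E2 was 3.31 log2 units above that of VEH (adjusted p = 4.47e-09). The AI values of Csn1s1, and those of Glod5, Acot1, Orm1 and Gal given below, lie under the array medians of 6.51 to 6.56. Fold sizes from such low values are uncertain. Phex, an endopeptidase of phosphate balance, was at 7.51, 7.67 and 7.28 with AI and at 10.14, 10.11 and 10.22 with AI+E2. The groups lay far apart, by 2.67 log2 units (SE 0.13, adjusted p = 7.01e-09). Glod5, a gene with a glyoxalase domain, went from 6.28, 6.42 and 6.47 to 9.08, 8.91 and 9.11, a rise of 2.64 (SE 0.11, adjusted p = 9.90e-10) that left it below its VEH mean of 10.25. Acot1, a cytosolic thioesterase that cleaves fatty acyl-CoA, was at 6.36, 6.23 and 6.15 without and at 8.66, 8.60 and 8.62 with E2 (5.21-fold, adjusted p = 7.01e-09). The 3 arrays with E2 differed by less than 0.1 log2 units from one another. Enpp3, an enzyme that splits nucleotides outside the cell, rose from 8.13, 8.28 and 7.90 to 10.40, 10.40 and 10.49, close to its VEH mean of 10.58. Rasgrp1, which activates Ras upon diacylglycerol, rose from 7.32, 7.30 and 7.65 to 9.73, 9.59 and 9.73 (4.80-fold, adjusted p = 2.97e-09). Akr1c3, formerly Akr1c18, encodes the reductase that inactivates progesterone, but it belongs to a family whose members can share probes, and its value is uncertain. Its probe set read 7.76, 8.10 and 8.67 with AI and 10.70, 10.56 and 10.83 with AI+E2. The log2 fold change was 2.52 (SE 0.24, adjusted p = 4.28e-06). Against VEH the reading was higher by 4.14 with E2 (adjusted p = 2.82e-08). Sharing of its probes was not tested.

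Other large rises were of plasma, membrane and adhesion proteins. Orm1, an acute-phase plasma protein, went from 6.36, 6.41 and 6.13 to 8.30, 8.07 and 8.37 (3.86-fold, adjusted p = 2.51e-06). F2rl2, a protease-activated receptor, rose from 7.54, 7.56 and 7.13 to 9.32, 9.31 and 9.34 (3.76-fold). Chrna5, a subunit of nicotinic acetylcholine receptors, was at 6.83, 6.97 and 6.59 with AI and at 8.25, 8.29 and 8.37 with AI+E2. Against VEH, at 6.39, it was higher by 1.91 with E2 (SE 0.13, adjusted p = 1.52e-07). Alcam, a cell adhesion molecule, rose by 1.51 (SE 0.09) and stood at 9.85 with E2 and at 9.79 in VEH. Lhfpl1 and the scaffold gene Lrrc1 rose by 1.95 and 1.58. Lrrc1 had similar means in VEH, at 6.93, and with AI, at 6.91.

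The largest fall was that of Cyp17a1, the enzyme that turns progestogens into androgens. It read 10.86, 10.98 and 10.73 with AI and 7.40, 7.33 and 7.63 with AI+E2, so that the log2 fold change was -3.41 (10.6-fold, SE 0.096, adjusted p = 1.74e-11). Its level with E2 was still 1.08 above that of VEH (adjusted p = 1.98e-06). Svs5, a gene known for a protein of seminal vesicle secretion, went from 8.59, 8.81 and 8.0 to 5.45, 5.53 and 5.45, near its VEH mean of 5.27. Fetub, which encodes the plasma protein fetuin-B, read 9.12, 9.28 and 8.19 with AI and 6.51, 6.15 and 6.50 with AI+E2 (5.56-fold lower, adjusted p = 1.22e-06). In Svs5, Fetub, Cyp1b1 and Bpifc the AI replicate 3 array was the lowest of its group. That it lay above all AI+E2 arrays was a condition for naming these genes. Cyp1b1, a cytochrome P450 that hydroxylates estrogens, fell from 8.56, 8.71 and 8.08 to 6.20, 6.19 and 6.29, level with its VEH mean of 6.19. With AI+E2, Svs5, Fetub and Cyp1b1, and Tfrc below, likewise lay at or under the array medians. Bpifc, a member of a family of lipid-binding proteins, fell by 2.10 (SE 0.17, adjusted p = 6.59e-07) to 1.05 below VEH. Nampt, the enzyme that starts the salvage of nicotinamide to NAD, was at 10.22, 10.30 and 10.23 with AI and at 8.66, 8.39 and 8.55 with E2 (3.29-fold lower, adjusted p = 3.44e-09). Tns4, a focal adhesion protein of the tensin family, read 11.30, 11.25 and 11.16 with AI and 9.72, 9.60 and 9.72 with AI+E2. Its VEH mean of 10.94 lay nearer the AI level and 1.26 above that with E2 (adjusted p = 1.71e-07). Clec2d2, a C-type lectin, fell by 1.62 (SE 0.21).

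**Figure D2:**
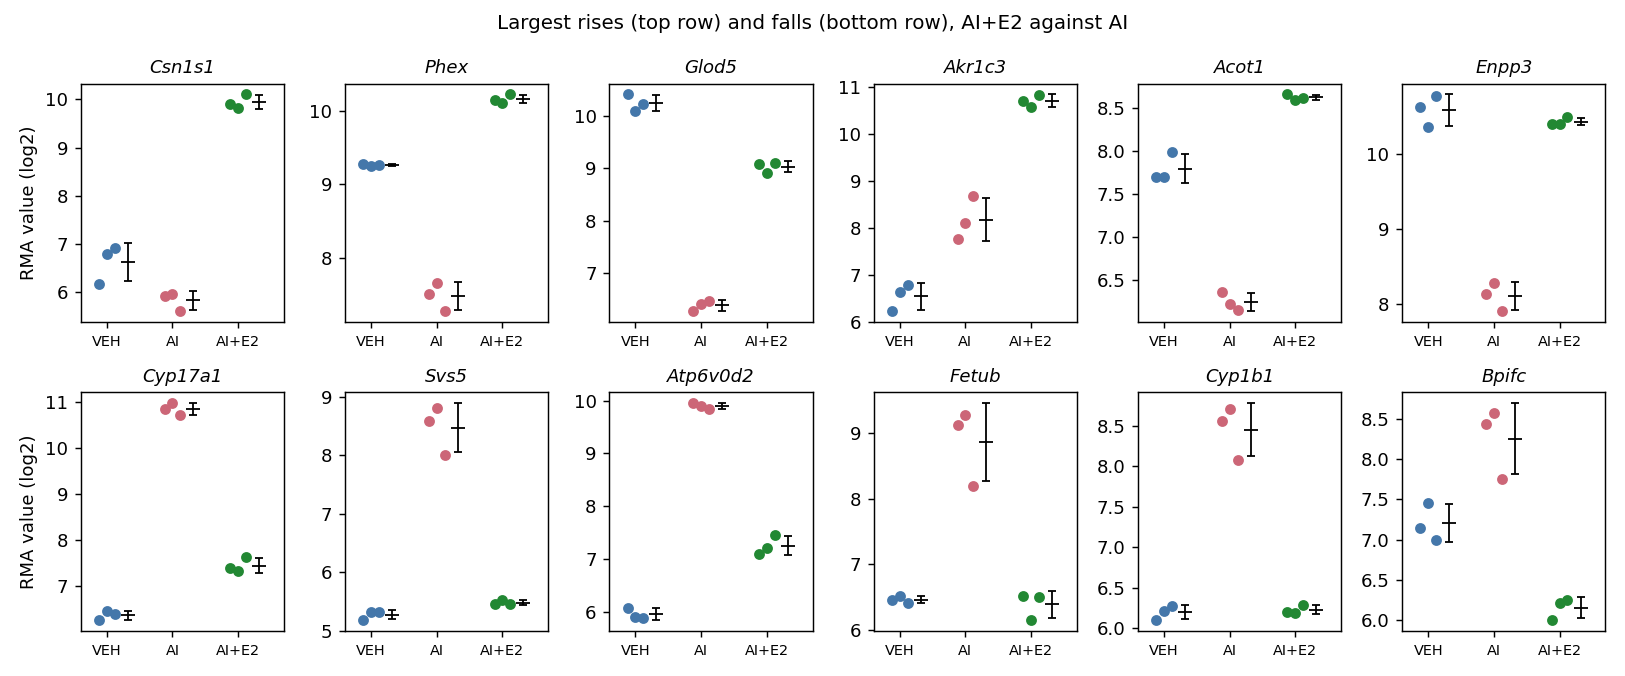
RMA values (log2) of the 6 largest rises (top row) and the 6 largest falls (bottom row) in AI+E2 against AI, with single arrays of VEH, AI and AI+E2 as points and the mean and SD (n = 3) in black beside them, each axis cut to the range of its gene. In each panel the AI and AI+E2 arrays lie apart, as the rule that chose the genes required. The place of the VEH arrays differs from gene to gene: level with AI+E2 in Enpp3 and Cyp1b1, far below it in Csn1s1.

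Genes were next grouped into 44 lists of pathways and families, whose 798 measured members included 232 called genes. Over all genes, 8.65% rose, 4.14% fell and the median log2 fold change was -0.022, and the counts below are to be read against these values. The lists were written with earlier results of these data known, so a higher share of calls can come partly from that choice. Of the 110 genes changed at least 2-fold, 40 were on a list.

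The enzymes of cholesterol synthesis stood out by the number of falls. Of 17 measured, 0 rose and 16 fell, with a median log2 fold change of -1.04. Sqle, the squalene epoxidase, read 10.93, 10.87 and 10.73 with AI and 8.79, 8.72 and 8.80 with AI+E2 (4.21-fold lower, adjusted p = 5.18e-10). Tm7sf2, a sterol reductase, fell by 1.64, Cyp51, the lanosterol demethylase, fell by 1.54, and Fdft1, the squalene synthase, fell by 1.48. Acat2, which supplies acetoacetyl-CoA, fell by 1.00. With E2, Fdft1 was below its VEH mean by 0.39 (adjusted p = 0.0149). Cyp51 and Sqle were above theirs by 1.67 and 0.87 (adjusted p = 4.16e-09 and 2.83e-06). The members thus did not stop at one level relative to VEH, but 13 of the 17 were higher than VEH and 2 lower. Their median difference of AI+E2 from VEH was 0.87, and over all genes 6.11% were higher and 6.91% lower. The member not called was Hsd17b7, a late step of the pathway, named after its values were seen. It read 12.57, 12.64 and 12.47 with AI and 12.77, 12.71 and 12.69 with AI+E2 (log2 fold change 0.16, adjusted p = 0.0919). Among 10 genes of sterol sensing and lipoprotein uptake, 3 fell and 0 rose (median -0.11). These were Insig1, which retains the sterol sensor in the endoplasmic reticulum and fell by 1.35, Srebf2, a transcription factor of the pathway, by 0.41, and Stard4, a sterol carrier, by 0.49.

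Of 15 genes of fatty acid synthesis and desaturation, 0 rose and 7 fell (median -0.30). Scd, the stearoyl-CoA desaturase, went from 10.42, 10.54 and 10.19 to 8.55, 8.59 and 8.62 (3.47-fold lower, adjusted p = 2.74e-06). Elovl6, an elongase of long-chain fatty acids, fell by 1.68 (SE 0.11, adjusted p = 9.11e-08), and Acss2, which makes acetyl-CoA from acetate, by 1.05 (SE 0.097). Fasn, the fatty acid synthase, and Acly, the citrate lyase that feeds it, fell by 0.99 and 0.98. The desaturases Fads1 and Fads2, named after their values were seen, were not called, at -0.22 and -0.09 (adjusted p = 0.0675 and 0.485).

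Several genes of fatty acid oxidation and PPAR targets went the other way. Of 22 genes of fatty acid oxidation and PPAR targets, 11 rose and 2 fell (median 0.31, with 8 to 12 rises when single arrays were left out and 5 with the methods' t-test). Beside Acot1, its mitochondrial relative Acot2 rose from 8.50, 8.75 and 8.49 to 9.92, 9.88 and 9.90 (2.49-fold, adjusted p = 1.42e-08). Angptl4, an inhibitor of lipoprotein lipase, rose from 8.11, 8.21 and 8.32 to 9.50, 9.24 and 9.28 (2.18-fold, adjusted p = 5.25e-05). Pdk4, the kinase that restrains pyruvate dehydrogenase, rose by 0.69 (SE 0.083). All 4 were higher with E2 than in VEH as well, Acot2 by 0.55 and Pdk4 by 0.64. Smaller rises, named after their values were seen, included Cpt1a, the carrier step into mitochondria, at 0.36, and the uncoupling protein Ucp2 at 0.36. Acyl-CoA dehydrogenases, also named after their values were seen, were split. Acadl and Acads rose by 0.45 and 0.46, and Acadm and Acadvl were not called, at 0.10 and 0.12 (adjusted p = 0.402 and 0.479). The members that fell were Ppard and the coactivator Ppargc1a, by 0.18 and 0.25, and 1 of these calls was lost whichever array was left out. Abca1, which exports cholesterol, rose by 0.64 (SE 0.091, adjusted p = 0.000176), and Lipa, the lysosomal acid lipase, by 0.41. They were the 2 rises among 17 genes of cholesterol ester, lipid droplets and efflux, of which 0 fell (median -0.048, with 1 fall without AI+E2 replicate 3).

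In steroid hormone synthesis 1 of 16 genes rose and 3 fell (median -0.048), with Cyp17a1 far from the rest. Cyp19a1, the aromatase, was at 11.74, 11.86 and 11.85 with AI and at 11.30, 11.25 and 11.27 with AI+E2 (1.46-fold lower, adjusted p = 1.59e-05), and at 12.09 in VEH. It was thus lower with E2 than in either other group of day 16. Por, the reductase that passes electrons to microsomal P450 enzymes, fell by 0.32. The rise was of Tspo, a mitochondrial membrane protein, by 0.39 (adjusted p = 0.0292), a call lost when any array but AI replicate 3 was left out. Cyp11a1, at a log2 fold change of -0.16 (adjusted p = 0.106), and the LH receptor gene Lhcgr, at 0.17 (adjusted p = 0.0799), were not called. Of 15 genes of steroid inactivation, 2 rose, Akr1c3 and Hsd17b4, and 1 fell, Cyp1b1 (median -0.054).

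The call of the estrogen receptor gene Esr1 turned on the probe set and on the arrays fitted. The probe set used read 9.20, 9.15 and 9.0 with AI and 9.36, 9.27 and 9.54 with AI+E2 (log2 fold change 0.28, SE 0.10, adjusted p = 0.0964), which was not called, and another probe set of Esr1 differed by 0.44. The mean of its probe sets was higher by 0.36 (adjusted p = 0.0073), and with the AI and AI+E2 arrays alone the adjusted p of the probe set used was 0.043. Esr2, the other receptor gene, had a log2 fold change of 0.09 (SE 0.14) and was not called. Of 21 textbook estrogen-induced genes, 2 rose and 3 fell (median -0.00024). The rises were Gal, which encodes the neuropeptide galanin and went from 6.25, 6.14 and 6.54 to 7.75, 7.74 and 7.57, and the chemokine gene Cxcl12, at 0.29. Wnt4 and C3 were among the falls, by 0.43 and 0.34. Among 19 other nuclear receptors, Nr0b2, a receptor without a DNA-binding domain, fell by 0.72 (adjusted p = 0.000277), and 1 rose, a count of 0 without AI replicate 1 or 3 or AI+E2 replicate 1 and of 2 without AI replicate 2 or AI+E2 replicate 2. In the prolactin and LH list 4 of 18 genes rose and 0 fell (median 0.075, with 1 fall without AI replicate 3, and 2 rises when AI replicate 1 or AI+E2 replicate 1 or 3 was left out). Prlr, the prolactin receptor, was at 10.11, 10.13 and 10.24 with AI and at 10.74, 10.67 and 10.85 with AI+E2, and Rgs2, which dampens G protein signals, rose by 1.07.

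**Figure D3:**
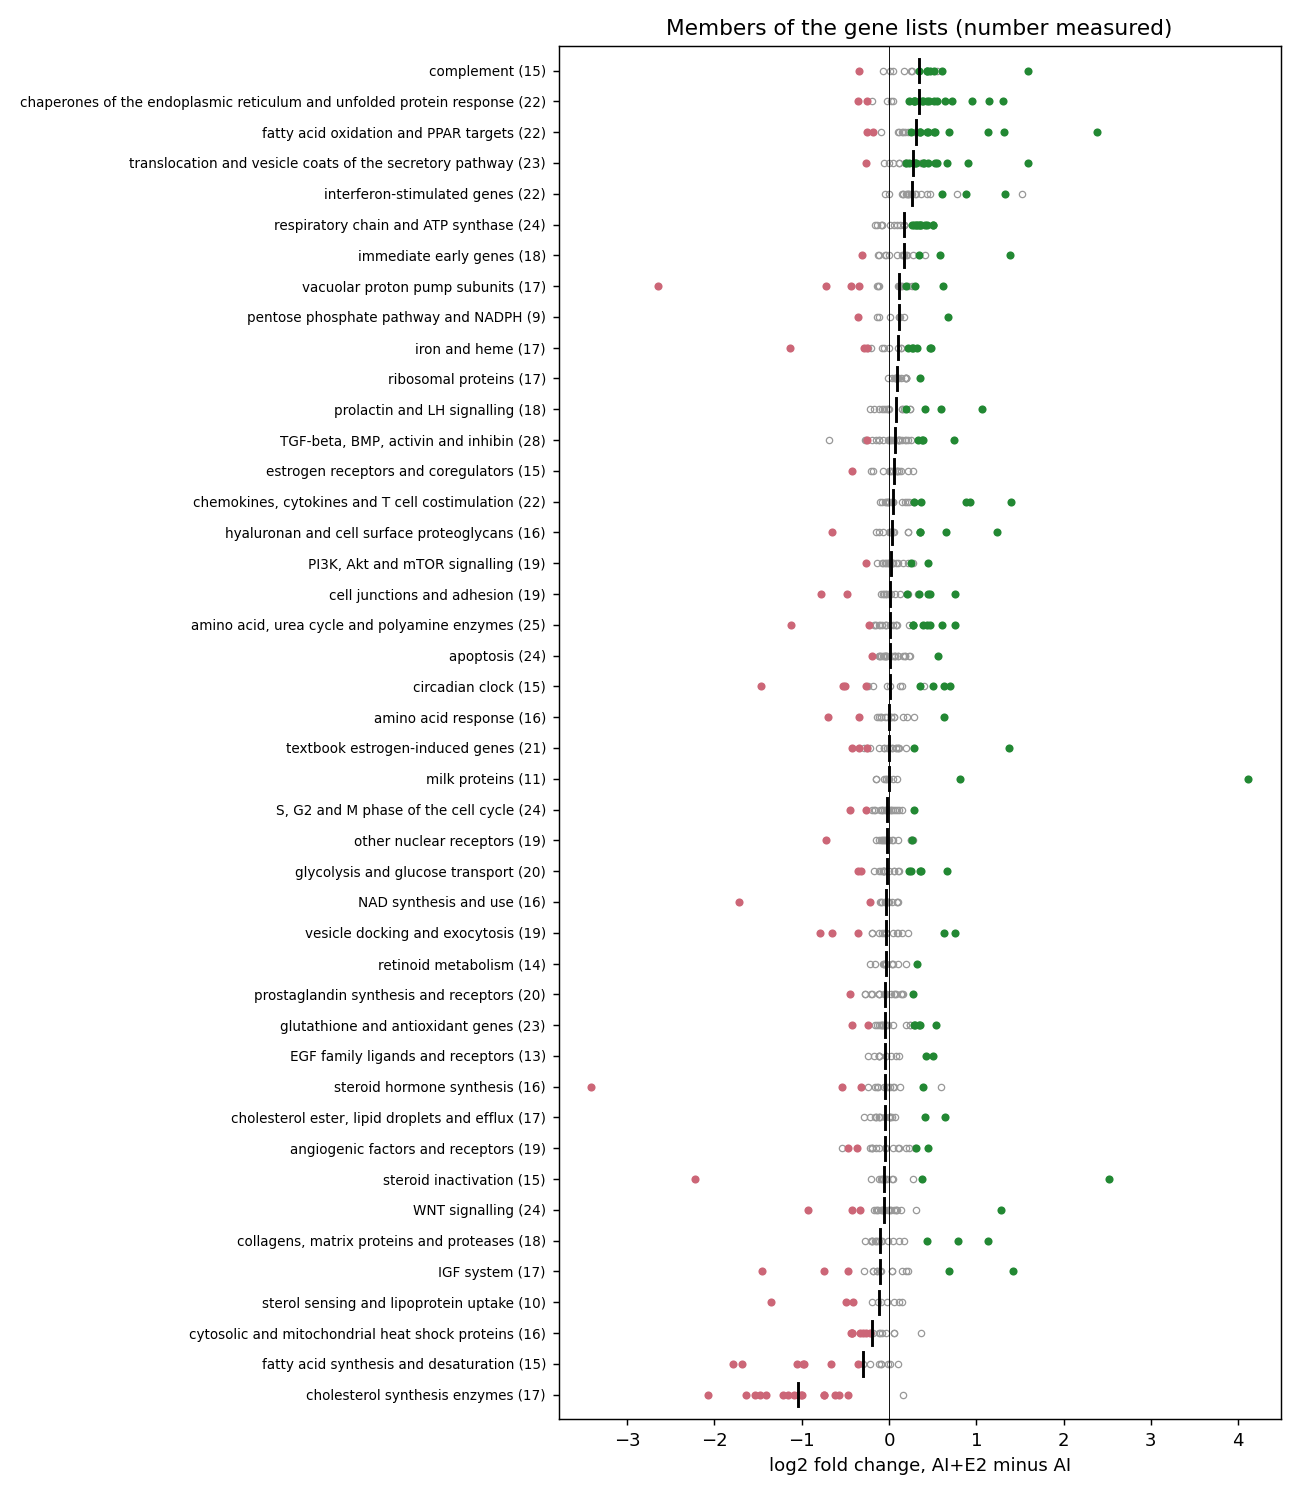
Log2 fold changes in AI+E2 against AI (horizontal axis) of the measured members of 44 gene lists, 1 row a list with the number of members in brackets, sorted by the list's median (black bar), with called rises in green, called falls in red and other members as open circles. Cholesterol synthesis lies lowest at a median of -1.04, and complement and the chaperones of the endoplasmic reticulum lie highest at 0.34. In most lists the members lie on both sides of zero.

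Milk protein genes did not move together. Of 11 measured, 2 rose and 0 fell (median -0.0051). Beside Csn1s1, Mfge8, a secreted protein that binds membrane phospholipid, rose from 9.91, 9.94 and 10.01 to 10.83, 10.74 and 10.75 (1.76-fold, adjusted p = 3.07e-06). The other caseins, named after their values were seen, stayed at low levels. Csn2, the beta-casein gene, read 6.38, 6.44 and 6.31 with AI and 6.27, 6.42 and 6.32 with AI+E2. Csn1s2a, Csn1s2b and Csn3 differed by 0.00, -0.06 and -0.01 (adjusted p = 0.99, 0.585 and 0.979). The promoters of Csn1s1 and Csn2 are shown because 1 of these casein genes, near each other on the chromosome, rose and the other was not called. They are the 250 bases before the annotated start, from RefSeq on build GRCr8, Csn1s1 at chr14:20638850-20639099 on the minus strand and Csn2 at chr14:20601574-20601823 on the plus strand. Capitals mark TTC and GAA set 3 letters apart, which reads the same on both strands and is the letter pattern known for STAT5, the factor that prolactin activates.
Csn1s1: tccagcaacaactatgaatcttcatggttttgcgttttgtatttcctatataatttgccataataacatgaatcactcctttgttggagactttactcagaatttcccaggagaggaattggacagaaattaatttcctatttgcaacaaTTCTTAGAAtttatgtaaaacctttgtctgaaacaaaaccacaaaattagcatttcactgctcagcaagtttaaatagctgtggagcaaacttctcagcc
Csn2: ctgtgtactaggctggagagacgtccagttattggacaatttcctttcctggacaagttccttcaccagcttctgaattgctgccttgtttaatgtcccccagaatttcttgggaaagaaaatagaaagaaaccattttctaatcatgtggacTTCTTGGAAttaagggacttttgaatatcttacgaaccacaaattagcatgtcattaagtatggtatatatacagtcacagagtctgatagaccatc
The pattern begins 100 bases before the start in Csn1s1 and 97 in Csn2, and it was also found before Csn1s2a and Csn1s2b, in 4 of 11 milk protein genes and in 7.52% of 27457 promoters. Csn1s1, which rose, and Csn2, which was not called, held it, while Mfge8, which rose, and Csn3, which was not called, did not in this window.

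The endoplasmic reticulum, where secreted and membrane proteins are folded, held the largest group of rises. Of 22 measured chaperones and genes of the unfolded protein response, 15 rose and 2 fell (median 0.34, with 12 to 15 rises when single arrays were left out). Creld2, a chaperone-like protein, went from 7.55, 7.71 and 7.36 to 8.91, 8.79 and 8.84 (2.47-fold, adjusted p = 2.47e-08). Pdia4, a protein disulfide isomerase, rose from 9.14, 9.13 and 9.06 to 10.25, 10.24 and 10.30 (2.23-fold, adjusted p = 7.01e-09), and its relative Pdia6 by 0.95. Hyou1, a large chaperone, rose by 0.72 (SE 0.063, adjusted p = 1.55e-06). Hspa5, Calr, Hsp90b1, Herpud1 and Ddit3 are named after their values were seen. Hspa5, the main Hsp70 chaperone there, read 11.74, 11.80 and 11.79 with AI and 12.08, 12.01 and 12.10 with AI+E2, a rise of 0.29, and Calr and Hsp90b1 rose by 0.44 and 0.39. The members that fell were Xbp1, a transcription factor of the unfolded protein response, by 0.25 (adjusted p = 0.00909), and Herpud1, a factor of protein disposal, by 0.35 (adjusted p = 0.0028). Ddit3, a gene of prolonged stress, rose by 0.30 (adjusted p = 0.0318).

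Promoters of 3 of these genes are shown because they carry a rare shared pattern. The capitals mark CCAAT and CCACG set 9 letters apart, or the same read on the other strand, which is the letter pattern known as the endoplasmic reticulum stress element. Sequences are again the 250 bases before the start (RefSeq, GRCr8), Creld2 at chr7:121789134-121789383, Hspa5 at chr3:38452766-38453015 and Calr at chr19:40213117-40213366, all on the plus strand.
Creld2: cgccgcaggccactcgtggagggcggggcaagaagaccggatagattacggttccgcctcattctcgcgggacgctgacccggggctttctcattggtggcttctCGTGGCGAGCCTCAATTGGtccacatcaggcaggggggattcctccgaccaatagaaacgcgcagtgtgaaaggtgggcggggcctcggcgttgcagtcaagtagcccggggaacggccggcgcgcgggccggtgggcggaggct
Hspa5: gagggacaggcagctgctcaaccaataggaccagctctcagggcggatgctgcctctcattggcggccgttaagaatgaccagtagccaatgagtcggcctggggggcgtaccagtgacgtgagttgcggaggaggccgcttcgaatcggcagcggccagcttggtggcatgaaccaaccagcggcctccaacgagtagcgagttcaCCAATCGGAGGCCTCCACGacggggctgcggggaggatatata
Calr: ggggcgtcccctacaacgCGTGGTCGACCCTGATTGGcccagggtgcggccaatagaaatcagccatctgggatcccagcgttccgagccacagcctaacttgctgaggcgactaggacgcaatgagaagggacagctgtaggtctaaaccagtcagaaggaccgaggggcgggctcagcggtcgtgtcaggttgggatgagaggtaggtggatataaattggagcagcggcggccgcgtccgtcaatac
This pattern was found in 21 of 27457 promoters (0.0765%) and in 7 of the 18 promoters at hand for the list. Of the 7, Creld2, Hspa5, Calr and Hsp90b1 rose, Canx and Dnajc3 were not called (log2 fold changes 0.02 and -0.02), and Xbp1 fell. Its first part, CCAAT, which overlaps it, was found in 18 of 18 promoters of the list, in 11 of 14 of cholesterol synthesis and in 34.3% of all. GGTCA and TGACC set 3 letters apart, the palindrome to which estrogen receptors bind, was found in 6 of 27457 promoters and in 0 of 59 and 0 of 30 promoters at hand of the genes that were at least 2-fold higher and lower. A match is a description of letters, and no match says only that these letters are not in this window.

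Genes of protein entry into the endoplasmic reticulum and of transport out of it rose along with the chaperones. Of 23 measured, 13 rose and 1 fell (median 0.28, with 9 to 13 rises when single arrays were left out, 5 with the methods' t-test, and 0 falls without AI replicate 1 or 2). Sec11c, a subunit of the signal peptidase, went from 7.88, 8.18 and 7.97 to 9.64, 9.50 and 9.67 (3.01-fold, adjusted p = 1.90e-08), beside a VEH mean of 9.68. Subunits of the translocon-associated complex were among the rises, Ssr4 from 10.11, 10.37 and 10.00 to 11.08, 11.08 and 11.05 (1.88-fold, adjusted p = 3.25e-06), Ssr2 by 0.67 and Ssr1 by 0.55. The place of both groups of genes against VEH was as follows, without a test of the difference between them. The median difference of AI+E2 from VEH was 0.078 for the chaperones, with 6 members higher and 2 lower, and -0.16 for translocation and coats, with 0 higher and 9 lower, against 6.11% higher and 6.91% lower (13.0% together) of all genes. Heat shock proteins outside the endoplasmic reticulum did not follow. Of 16 cytosolic and mitochondrial ones, 0 rose and 7 fell (median -0.19), a count of 1 with the methods' t-test. Dnaja1, Hsp90aa1, Hsph1 and Hspa4, all chaperones of the cytosol or their partners, fell by 0.42, 0.44, 0.43 and 0.33. In exocytosis, 2 of 19 genes rose and 3 fell (median -0.037). The small GTPase gene Rab3a rose by 0.63 (adjusted p = 1.94e-05) and Rab27a, from 6.48, 6.55 and 6.58 to 7.23, 7.14 and 7.52, by 0.76 (adjusted p = 0.00123), while Sytl4, a Rab27 effector, and Unc13d, a priming factor, fell by 0.65 and 0.79.

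**Figure D4:**
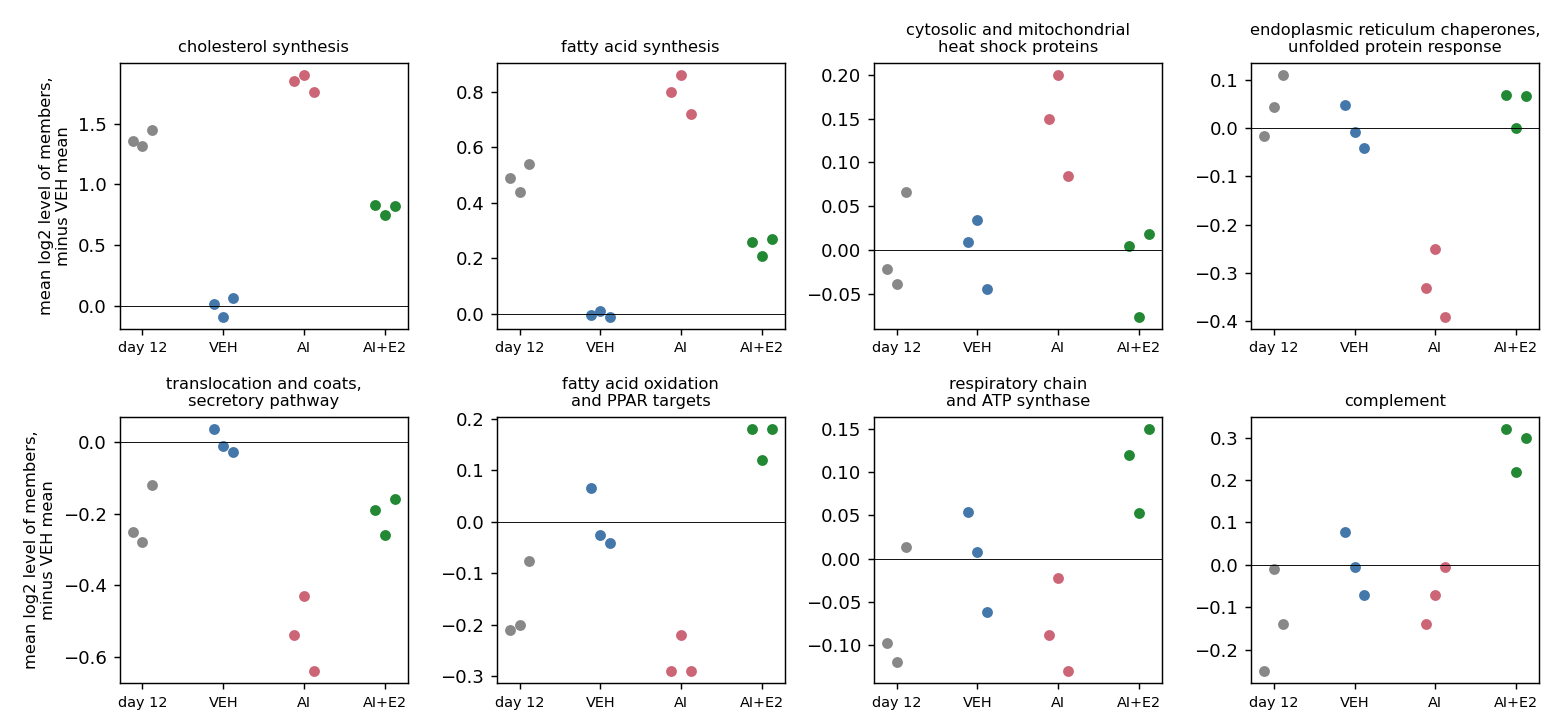
Mean log2 level of the members of 8 gene lists on each of the 12 arrays (points; n = 3 arrays per group), minus the mean of the VEH arrays, with axes that differ in range. In cholesterol synthesis the AI arrays lie at 1.76 to 1.90 and the AI+E2 arrays at 0.75 to 0.83. In the chaperones of the endoplasmic reticulum they lie at -0.39 to -0.25 and at -3e-05 to 0.069.

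Of 24 genes of the respiratory chain and ATP synthase, 11 rose and 0 fell (median 0.17, with 7 rises without AI+E2 replicate 1 or 3 and 3 with the methods' t-test). Cox5a, a subunit of cytochrome oxidase, went from 10.19, 10.27 and 10.23 to 10.73, 10.76 and 10.70 (adjusted p = 1.77e-05), and Ndufs3 of complex I rose by 0.50. Idh2, the mitochondrial dehydrogenase that yields NADPH, rose by 0.68, whereas Me1, the malic enzyme, fell by 0.35. In glycolysis 5 of 20 genes rose and 2 fell (median -0.028). The rises were 3 if AI replicate 1 was left out and 2 if AI+E2 replicate 1 or 3 was, and the falls were 1 without AI replicate 1 or 3 or AI+E2 replicate 3. Ldha is uncertain, since the probe set used rose by 0.67 and the other one differed by -0.81. Of 16 genes of NAD metabolism, 0 rose and 2 fell (median -0.035), Nampt and Nadk, the NAD kinase, with only Nampt left when AI replicate 1 or 2 or AI+E2 replicate 1 or 2 was omitted.

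Amino acid and iron genes moved in both directions. Ass1, the urea cycle enzyme that joins citrulline and aspartate, read 9.25, 9.31 and 9.93 with AI and 8.45, 8.32 and 8.38 with AI+E2 (2.17-fold lower, adjusted p = 0.000279). Its VEH mean of 11.21 lay above both. Bcat2 and Bcat1, transaminases of branched-chain amino acids, rose by 0.76 and 0.61, and Odc1, the first enzyme of polyamine synthesis, by 0.39. In that list of 25 genes, 7 rose and 2 fell (median 0.01, with 1 fall without AI replicate 2 or AI+E2 replicate 1 or 2). Slc3a2, the shared chain of several amino acid transporters, fell from 11.23, 11.27 and 11.18 to 10.57, 10.50 and 10.51. It was 1 of 2 falls beside 1 rise among 16 genes of the amino acid response (median 0.002), a rise lost without AI+E2 replicate 3 and joined by another without AI replicate 3. Of 17 genes of iron and heme, 6 rose and 3 fell (median 0.10, with 3 rises if AI replicate 1 or AI+E2 replicate 1 was omitted, and 1 fall for AI replicate 2). Tfrc, the transferrin receptor, was at 7.32, 7.41 and 7.45 with AI and at 6.18, 6.20 and 6.38 with AI+E2 (2.21-fold lower, adjusted p = 2.03e-05), and at 8.58 in VEH. Aco1 and Cp, an iron-sensing protein and the ferroxidase ceruloplasmin, rose by 0.47 and 0.48. Globin transcripts differed between the same arrays, with summed levels of 6 red blood cell markers of 1930 to 2560 in AI and 1140 to 1250 in AI+E2. Their part in the iron genes was not tested.

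Subunits of the vacuolar proton pump were split. Atp6v0d2 read 9.95, 9.90 and 9.85 with AI and 7.10, 7.20 and 7.46 with AI+E2 (6.26-fold lower, adjusted p = 5.18e-10), and 5.96 in VEH. Atp6v0a1 fell by 0.72 and Atp6v1b2 by 0.44, while Atp6v1a rose by 0.62 (adjusted p = 0.00036). Of 17 subunits, 3 rose and 4 fell (median 0.11, with 1 rise when AI replicate 3 was omitted or AI+E2 replicate 1 or 3, and 7 falls with quantile normalization applied again).

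In the IGF system 2 of 17 genes rose and 3 fell (median -0.10, with 5 falls without Day12 replicate 2 and 6 with quantile normalization applied again). Pappa, the protease that cleaves IGF binding proteins, went from 8.99, 9.03 and 9.03 to 7.47, 7.62 and 7.56 (2.76-fold lower, adjusted p = 7.01e-09), and Stc1, an inhibitor of that protease, from 8.15, 8.26 and 7.85 to 9.53, 9.46 and 9.52 (2.67-fold higher, adjusted p = 8.84e-06). Protease and inhibitor thus moved in opposite directions. Igfbp5, a binding protein, fell from 8.97, 9.10 and 8.67 to 8.23, 8.08 and 8.17, and Igf2r, the receptor that clears IGF2, rose by 0.69. The call of Igfbp5 was lost with the methods' t-test. Igf1, at 9.94, 10.11 and 9.69 with AI and 10.20, 10.09 and 10.11 with AI+E2, and its receptor gene Igf1r, with a log2 fold change of -0.18, were not called (adjusted p = 0.155 and 0.105). Akt1, the kinase, had a rise of 0.45 (adjusted p = 0.000134). Among 19 genes of PI3K, Akt and mTOR signalling 2 rose and 1 fell (median 0.027), with 1 rise without AI replicate 1 or AI+E2 replicate 3 and 0 falls without AI replicate 1 or AI+E2 replicate 1.

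Among 24 WNT genes 1 rose and 3 fell (median -0.057). Fzd8, a WNT receptor, rose from 7.31, 7.25 and 7.49 to 8.66, 8.62 and 8.61 (2.43-fold, adjusted p = 4.89e-08), and the ligand gene Wnt5a fell from 8.38, 8.47 and 8.43 to 7.49, 7.47 and 7.55 (1.90-fold, adjusted p = 9.11e-08). Fst, the activin antagonist follistatin, rose by 0.74 (SE 0.12, adjusted p = 0.000485), among 4 rises and 1 fall of 28 genes of the TGF-beta, BMP, activin and inhibin families (median 0.067, with 1 rise without AI+E2 replicate 1, 2 rises and 0 falls without AI replicate 1, and 2 falls without AI replicate 2). In the EGF family, Egfr, the receptor, and Adam17, the protease that releases ligands, rose by 0.50 and 0.42, and 0 of 13 fell (median -0.044, with 1 fall without AI+E2 replicate 2). In angiogenesis, Vegfa and Flt4, a growth factor of vessels and a receptor of lymphatic ones, fell by 0.37 and 0.47, among 2 rises and 2 falls of 19 genes (median -0.05). The rises were 0 without AI replicate 3 or AI+E2 replicate 3, 1 without AI replicate 1 or AI+E2 replicate 1 and 4 without AI replicate 2. Of 18 immediate early genes, 3 rose and 1 fell (median 0.17, with 5 rises without Day12 replicate 2 and 0 falls without AI replicate 2 or 3 or AI+E2 replicate 2 or 3), and Nr4a1, a nuclear receptor of early responses, was at 7.17, 7.23 and 7.08 with AI and at 8.52, 8.60 and 8.53 with AI+E2. In the cell cycle, 1 of 24 genes of S, G2 and M phase rose and 2 fell (median -0.018), with the rise lost when AI replicate 1 or 3 or AI+E2 replicate 1 or 3 was omitted and a fall lost for AI replicate 1 or AI+E2 replicate 1 or 2. In apoptosis 1 of 24 rose and 1 fell (median 0.0058), the fall being lost without AI replicate 2 or AI+E2 replicate 1 or 2. That fall, of the caspase inhibitor gene Xiap, is uncertain, since the probe set used differed by -0.20 and the other one by 0.19.

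The clock list held its largest change in Nr1d1, a repressor of the circadian clock. It went from 9.54, 9.68 and 9.45 to 8.09, 8.0 and 8.17 (2.77-fold lower, adjusted p = 1.28e-07), below its VEH mean of 8.85. Nfil3, Per2 and Cry2, clock repressors of other families, rose by 0.63, 0.70 and 0.50 (adjusted p = 6.87e-05, 6.19e-05 and 0.000262). The 15 clock genes measured held 4 rises and 4 falls (median 0.0057). Nr1d2 and Dbp, named after their values were seen, fell by 0.50 and 0.53, and the core genes Clock and Bmal1 were not called, at 0.01 and 0.15. The sources used here do not give the hour at which the tissue of each group was collected. The part of that hour in the clock genes was not tested.

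Sdc2, a cell surface proteoglycan, rose from 9.41, 9.54 and 9.57 to 10.78, 10.71 and 10.76 (2.36-fold, adjusted p = 2.47e-08), while of the glypicans Gpc1 rose and Gpc4 fell, each by 0.65. Of 16 genes of that list, 4 rose and 1 fell (median 0.033, with 2 falls without AI replicate 3). Itga6, a laminin receptor subunit, rose by 0.76 (adjusted p = 2.88e-05), and Gja1, the gap junction protein connexin 43, fell by 0.78 (adjusted p = 0.00101). Gja1 is also on the list of follicle markers given below. Of 19 genes of cell junctions and adhesion, 5 rose and 2 fell (median 0.015, with 2 rises and 1 fall by the methods' t-test), 36.8% called against 12.8% of all genes. Adamts1, a secreted protease, rose from 7.70, 7.69 and 7.67 to 8.86, 8.74 and 8.84 (2.18-fold, adjusted p = 1.79e-06), and Timp1, an inhibitor of matrix proteases, by 0.79. They were with Plau the 3 rises among 18 genes of collagens, matrix proteins and proteases, of which 0 fell (median -0.098, with 1 fall without AI replicate 3).

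Complement genes rose in larger numbers than they fell. Of 15 complement genes, 7 rose and 1 fell (median 0.34, with 3 rises left when AI replicate 1 or AI+E2 replicate 1 was omitted, 4 for AI+E2 replicate 3, and 2 rises and 0 falls with the methods' t-test). C6, a component of the terminal pore, went from 7.05, 7.13 and 6.82 to 8.59, 8.50 and 8.68 (3.01-fold, adjusted p = 1.05e-07), beside a VEH mean of 8.79. Cd59b, an inhibitor of that pore, rose by 0.61 (adjusted p = 1.90e-05), C1s, a protease of the first component, by 0.47, and C3 fell by 0.34, a call lost without AI replicate 2. Cd80, a costimulatory ligand of T cells, rose from 6.10, 6.49 and 6.82 to 7.92, 7.69 and 7.98 (2.63-fold, adjusted p = 1.05e-05) and stayed below its VEH mean of 8.84. It was among 5 rises and 0 falls of 22 genes of chemokines, cytokines and costimulation (median 0.042, 2 of the rises being left when AI replicate 2 or AI+E2 replicate 1 or 3 was omitted, and 1 by the methods' t-test).

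Of 22 interferon-stimulated genes, 3 rose and 0 fell (median 0.26), namely Bst2, an inhibitor of virus release, Oas1b, of the oligoadenylate synthase family, and the chemokine gene Cxcl10. Bst2 went from 7.99, 7.92 and 8.10 to 8.69, 8.55 and 8.60 (1.52-fold, adjusted p = 7.33e-06). Oas1b rose from 5.99, 6.42 and 6.50 to 7.66, 7.43 and 7.82 (adjusted p = 0.0174), a call lost without AI replicate 1 or AI+E2 replicate 1 or 3. In 18 of these genes all AI+E2 arrays lay above all AI arrays, and in 0 below, against 31.4% of all genes lying apart either way. The count of calls depended on an array outside the comparison. On Day12 replicate 2, all 22 genes were higher than on the other 2 day 12 arrays, which widened the spread that the 4 groups share. Without it, 12 members rose, and 12 with the 9 day 16 arrays alone, both chosen after seeing the data, and 14 with the AI and AI+E2 arrays alone. Usp18, which dampens interferon signals, read 6.63, 6.92 and 6.71 with AI and 8.32, 8.0 and 8.50 with AI+E2, a log2 fold change of 1.52 with an SE of 0.61 (adjusted p = 0.127), and an SE of 0.18 (adjusted p = 3.14e-05) without that array. Lymphocyte markers differed beside these genes. Of 12, 4 rose and 0 fell (median 0.099, with 2 rises when AI replicate 1 or AI+E2 replicate 1 or 3 was omitted and 0 by the methods' t-test), and their summed level, as powers of 2, was 1570 to 1790 in AI and 1920 to 2070 in AI+E2. Cd3g, a T cell receptor subunit, read 4.69, 4.70 and 4.84 with AI and 5.07, 5.07 and 5.03 with AI+E2. These values lie below the array medians of 6.51 to 6.56, and the call of Cd3g was lost with the methods' t-test. The part of lymphocytes in the immune genes was not tested.

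**Figure D5:**
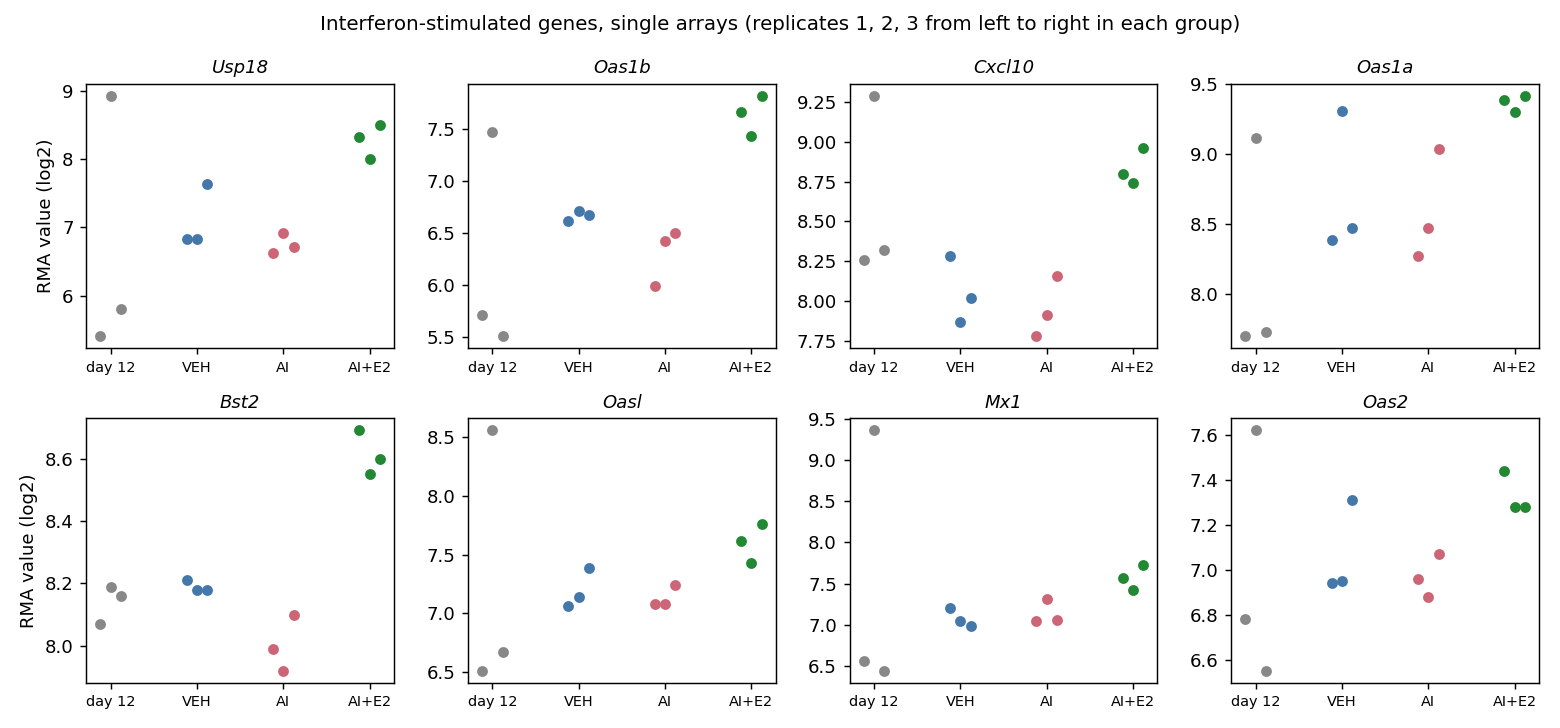
RMA values (log2) of the 8 interferon-stimulated genes with the highest log2 fold change in AI+E2 against AI, with single arrays as points (replicates 1 to 3 from left to right in each group) and each axis cut to the range of its gene. In each panel the 3 AI+E2 arrays lie above the 3 AI arrays, and in all but Bst2 the array of Day12 replicate 2 lies far above the other 2 of its group.

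Markers of other cell types were compared in the same arrays. Summed levels overlapped between AI and AI+E2 for endothelium (4850 to 5600 and 5210 to 5520), macrophages (5690 to 6130 and 5730 to 5930), smooth muscle and pericytes (6620 to 7730 and 6820 to 7040), fibroblasts (5150 to 6760 and 5680 to 5920), fat cells (790 to 883 and 821 to 855) and oviduct epithelium (597 to 644 and 615 to 639). Among the 11 endothelial markers 1 rose, a count of 0 without AI replicate 1 or 3 or AI+E2 replicate 1 or 3 and of 2 without AI replicate 2, and among the 11 of smooth muscle 0 rose and 0 fell. Luteal cell markers summed to 32400 to 33600 in AI and 33100 to 33900 in AI+E2, with 2 of 8 higher, Prlr and the uncertain Akr1c3. Follicle markers ranged from 2150 to 3730 in AI and from 1830 to 1860 in AI+E2, and Gja1 fell while Zp2, a gene of the egg coat, rose. The mean log2 level of the follicle markers, minus the VEH mean, overlapped. It was 0.11, 0.13 and 0.36 in AI replicates 1 to 3, and 0.12, 0.11 and 0.098 in AI+E2, so AI replicate 3 alone stood high. Hbb-b1 and Hbb, the beta globins, fell by 1.25 and 1.04 (adjusted p = 0.00189 and 0.00352), and 0 of the 6 red blood cell markers rose. Because Csn1s1 is a milk gene, mammary epithelium was examined as well. Of 11 markers, 1 rose and 0 fell (median -0.058), and the rise was of Cited1, a transcriptional coactivator, at 11.63, 11.69 and 11.65 with AI and 12.05, 11.90 and 12.08 with AI+E2. Their summed level was 3870 to 3930 in AI and 4480 to 4920 in AI+E2, which did not overlap. Most of that sum was Cited1 itself, the member that rose. The mean log2 level of the 11 markers, minus the VEH mean, overlapped, at 0.099 to 0.21 in AI and 0.087 to 0.18 in AI+E2. The part of mammary cells in the Csn1s1 values was not tested. Of 10 markers of trophoblast and decidua, 0 rose and 0 fell, and summed levels were 2210 to 2510 in AI and 2480 to 2590 in AI+E2.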

How the data were processed

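Luteal RNA of 12 rats, 3 in each of 4 groups, was hybridised to Affymetrix Rat Gene 1.0 ST arrays. By the submitters' processing notes RMA was run in R 2.12.2. It subtracts background, equalises distributions and can compress large differences, and the authors deposited its log2 values of 29214 probe sets. The sources used here do not say over which arrays it was run. Array medians were 6.51 to 6.56, and 0 pairs of arrays were identical. The 15310 probe sets with 1 symbol in the platform annotation, and 3 named through the study's probe lists, gave 14509 genes, and of 527 genes with several probe sets the one in those lists or the brightest was used. No filter on dim genes was applied.

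Genes were fitted with limma 3.58.1 (R 4.3.3; lmFit, eBayes) to 4 group means over all 12 arrays, with 8 residual and 6.66 prior degrees of freedom, so that all groups shared 1 estimate of the spread, and tested on simulated data. Lists are described by counts and medians. Alternatives were the methods' t-test (two-sided, equal variances, the same values), fits to fewer arrays, the replicate number as a block, other filters and probe set rules, and repeated quantile normalization or median centring. The members, lists and tests were chosen with earlier results of these data known. Named genes were the 15 largest rises and 15 largest falls with an adjusted p under 0.05 and groups that did not overlap, from each list up to 4 genes of smallest p, and the genes measured by qPCR in the study with Esr2. Others are said to be named after their values were seen. Hmgcs1 and further listed genes without a probe set of 1 symbol were not analysed here. Summed marker levels are sums of 2 to the power of the RMA values. Older symbols of list members were matched through the RefSeq gene table, and the 250 bases before each start came from its GRCr8 promoters. Python 3.11.15 and matplotlib 3.10.9 were used.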

Additional observations from a re-analysis of the deposited data

Results flagged for a closer look

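On the array of Day12 replicate 2, outside the comparison but inside the shared fit, interferon-stimulated genes differed by a median of 1.19 log2 units from the mean of the other 2 day 12 arrays, with 22 of 22 higher. Among the 13901 probe sets without 1 gene symbol, which the comparison of genes did not use, 21 were at least 2-fold higher and 15 at least 2-fold lower in AI+E2 than in AI (limma over all probe sets, adjusted p under 0.05), with log2 fold changes from -1.67 to 1.89.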

How the results depend on the processing

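Over all genes, 1856 were called, 1255 of them higher and 601 lower. The methods' t-test after Benjamini-Hochberg adjustment called 765, 499 higher and 266 lower, and quantile normalization applied again called 986 lower. Leaving out 1 array, each of AI and AI+E2 and, chosen after seeing the data, Day12 replicate 2, gave 825 (without AI+E2 replicate 3) to 1417 higher and 390 (without AI replicate 1) to 658 lower calls, and the 9 day 16 arrays alone, also chosen later, 1385 and 636. The counts at 1.5-fold and 2-fold stayed within 1.5 times in the alternatives run. All probe sets fitted together gave no values for named genes or lists. Ldha, at 0.67, was reversed to -0.07 (adjusted p = 0.938) with the mean of its probe sets. Esr1, not called at 0.28, was called in 2 alternatives. The methods' t-test left 1 rise each in the TGF-beta and proton pump lists and 2 each in glycolysis and iron. Of 237 named genes, 173 were called, and 74 of them lost the call in at least 1 alternative, most often the methods' t-test (68 lost). With the replicate number as a block, 1632 genes were called (1119 higher and 513 lower), and 7 named genes lost the call. The deviations of same-numbered AI and AI+E2 arrays from their group means correlated at -0.07, -0.49 and -0.31, none of them positive. The labels do not say what same-numbered arrays share beyond the number. Differences within the spread of 3 arrays were not detectable here.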
